A study of Homo sapiens with 3 samples.

Results

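The genes described here are 51 human genes of replication origin licensing, the replication fork and the G1/S transition. Their rows were taken from a published table by gene symbol and not by value. The list itself was chosen with earlier results of these data known. All 51 had at least 1 transcript in the table, out of 12582 genes that could be named there, and together they had 88 transcripts, 85 of them coding and 3 non-coding. The RNA was from SW480, an established cell line grown from a human colon adenocarcinoma, transduced with an shRNA against RBMS1 (1 library) or with control shRNA (2 libraries) and harvested 48 hours later. RBMS1 encodes a protein that binds RNA at A+U-rich sequence. All 3 libraries were total RNA depleted of ribosomal RNA, and the labels leave unsaid if 1 hairpin served for both control libraries. Every value is a log2 fold change, shRBMS1 over shControl, in the authors' deposited table or computed from it, and genes with several listed transcripts are given by the median over them. With 1 knockdown library and no level per library, no test, error or depth can be attached to a value, and a change in the share of cells in S phase cannot be told apart from a change in RNA per cell.

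DNA replication starts where the origin recognition complex (ORC) marks the DNA in G1. CDC6 and CDT1 then load the MCM2-7 helicase there, and geminin blocks CDT1 once S phase has begun. The kinase CDC7, together with MCM10, CDC45 and the GINS complex, turns the loaded helicase on. At the moving fork, polymerase alpha-primase lays primers, the RFC complex loads the PCNA clamp, polymerases delta and epsilon extend the strands, RPA covers single-stranded DNA, and FEN1 and LIG1 finish the Okazaki fragments. Transcription factors of the E2F family switch on most of these genes at G1/S, cyclin E drives the entry into S phase, and DTL directs the ubiquitin ligase that removes CDT1 during S phase. These genes are widely used as markers of proliferation in colon cancer cells.

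The replication genes lay close to 0 as a group, and the values of 1 or more in size belonged to transcripts of genes with several. The median of the 51 genes was 0.08 (105% of control), beside 0.01 for all 12582 genes, and the interquartile range of the 51 was −0.13 to 0.20, beside −0.25 to 0.23 for all genes. Of the 51 genes, 44 (86.3%) lay within 0.5 of 0, against 76.9% of all genes, and 34 lay above 0 and 17 below. At or above 1 stood 1 of the 51 genes, MCM3, beside a background of 3.95% of all genes. At or below −1 stood 1 of the 51, DTL, beside a background of 3.96%. One gene in 51 is 1.96%, and nothing is read from such single counts. The 7 genes outside 0.5 were MCM3, MCM4, PCNA, ORC5 and POLD3 above and TYMS and DTL below. Apart from TYMS, each of these 7 rests on 2 transcripts that disagree by more than 1.

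**Figure D1:**
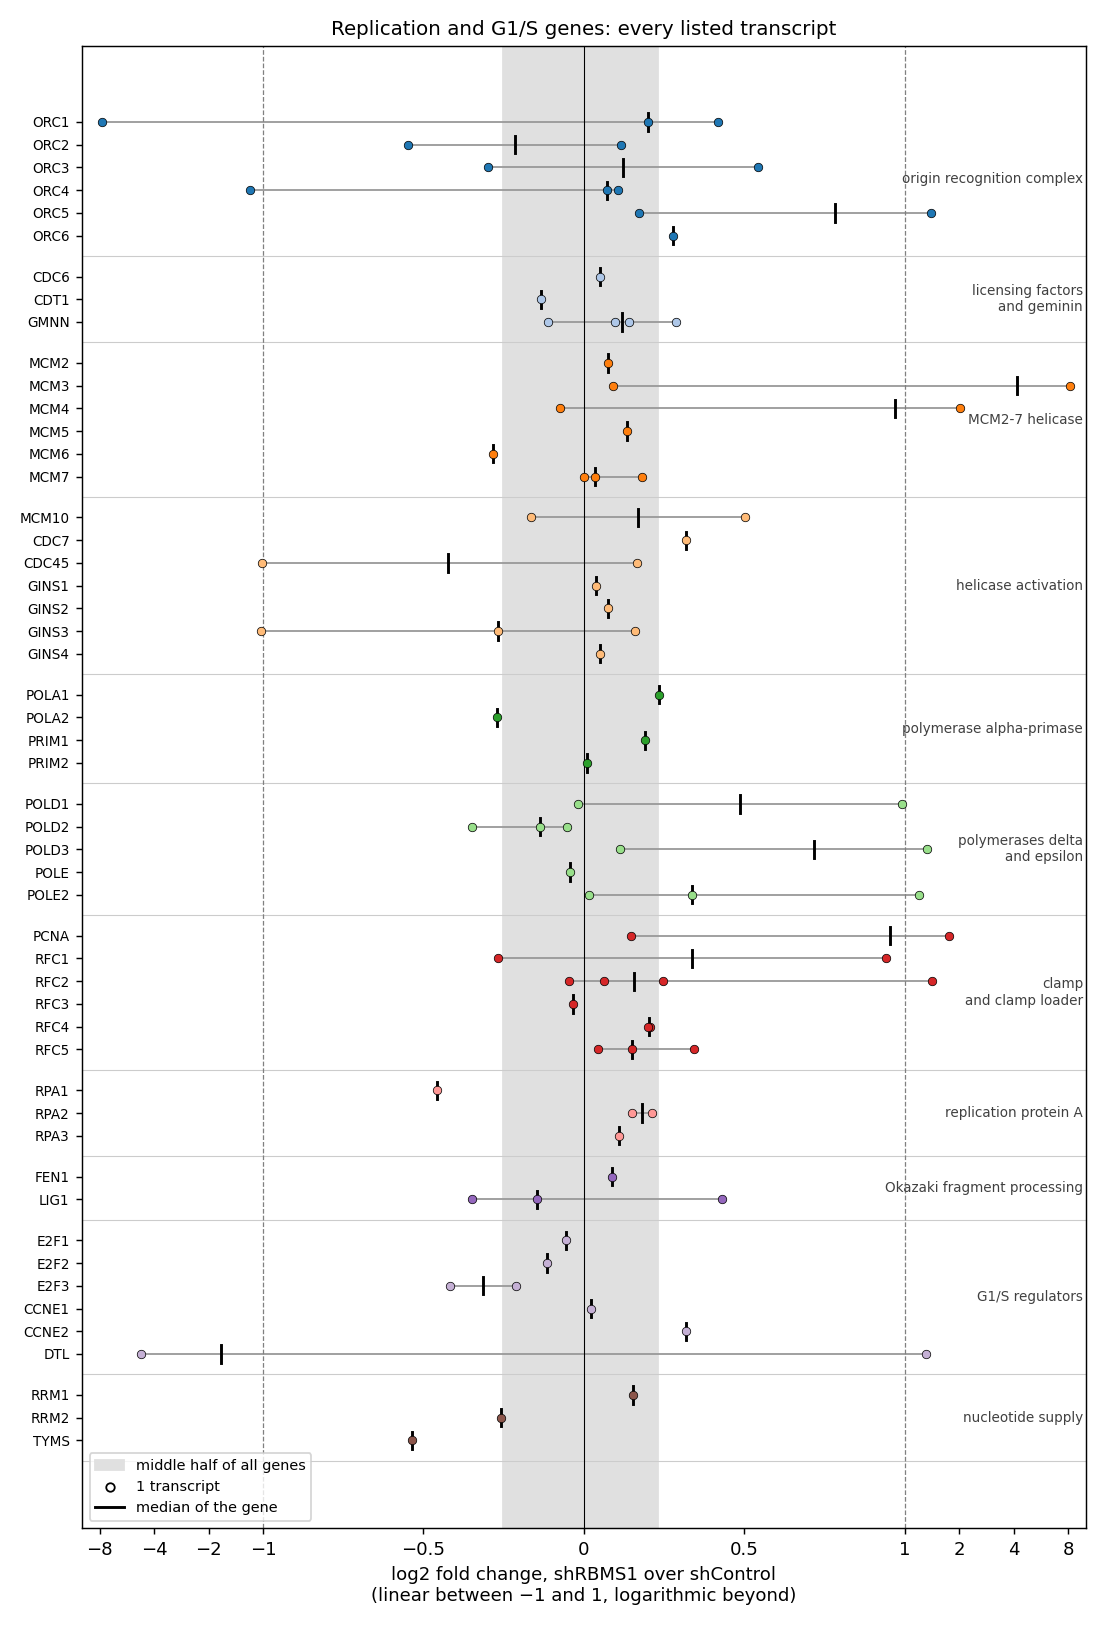
Log2 fold change (shRBMS1 over shControl, horizontal axis, linear between −1 and 1 and logarithmic beyond) of all 88 transcripts of the 51 genes (rows, by role); points are transcripts, black bars the median of each gene, the grey band the interquartile range of all genes, and dashed lines mark −1 and 1. Most genes sit within the band or near it, and the values beyond 1 belong to genes whose other transcripts lie elsewhere.

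Stretches of coding sequence that are present in 1 transcript of a gene and not in another are shown here for 4 genes, as examples of how the listed transcripts differ. They come from GENCODE 29 transcripts (GRCh38, the assembly that hg38 names) linked to the RefSeq accessions, given 5′ to 3′ on the strand of the gene. Capitals mark the bases that are present in 1 of the 2 transcripts alone, and lower case the neighbouring bases that both hold. MCM3 exon 2 of 17 (chr6:52283294-52283406, minus strand, 113 coding bases) is in NM_002388 and not in NM_001270472:
MCM3: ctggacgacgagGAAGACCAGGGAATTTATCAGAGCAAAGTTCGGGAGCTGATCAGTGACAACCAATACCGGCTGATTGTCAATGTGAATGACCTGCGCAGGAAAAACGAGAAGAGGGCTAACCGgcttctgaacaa
DTL exon 2 of 15 (chr1:212042993-212043118, plus strand, 126 coding bases) is in NM_016448 and not in NM_001286230:
DTL: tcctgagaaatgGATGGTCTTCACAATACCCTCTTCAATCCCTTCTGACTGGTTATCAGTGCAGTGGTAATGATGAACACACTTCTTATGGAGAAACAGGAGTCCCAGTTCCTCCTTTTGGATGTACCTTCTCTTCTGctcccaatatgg
CDC45 exon 4 of 19 (chr22:19482690-19482827, plus strand, 138 coding bases) is in NM_003504 and not in NM_001178011:
CDC45: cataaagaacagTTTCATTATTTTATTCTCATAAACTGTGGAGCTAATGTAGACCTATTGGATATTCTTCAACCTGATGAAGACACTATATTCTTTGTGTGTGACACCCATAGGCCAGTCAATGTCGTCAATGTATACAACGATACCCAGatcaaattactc
RFC2 exon 4 of 11 (chr7:74249012-74249118, minus strand, 107 coding bases), which encodes the ATP-binding Walker A motif, is in NM_181471 and not in the GENCODE transcript linked to both NM_001278791 and NM_001278792:
RFC2: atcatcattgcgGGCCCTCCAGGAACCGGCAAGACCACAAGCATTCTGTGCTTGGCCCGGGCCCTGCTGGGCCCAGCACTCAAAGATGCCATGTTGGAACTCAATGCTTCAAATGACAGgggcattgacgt

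In 3 further genes the coding sequences of the 2 transcripts differ by 3 bases at the start of an exon, as follows: exon 5 of MCM10 (chr10:13172625-13172627, plus strand), exon 15 of ORC3 (chr6:87656903-87656905, plus strand) and exon 14 of RFC1 (chr4:39306702-39306704, minus strand). They are shown because these are the closest pairs with unequal coding sequences. The pairs differ in untranslated bases too. The form without the 3 bases has 1393 untranslated bases of its own in MCM10 and 14 in ORC3. In RFC1 the form with them has 24.
MCM10, extra bases in NM_182751: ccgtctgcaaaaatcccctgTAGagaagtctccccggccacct
ORC3, extra bases in NM_181837: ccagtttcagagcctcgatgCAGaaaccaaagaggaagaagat
RFC1, extra bases in NM_001204747: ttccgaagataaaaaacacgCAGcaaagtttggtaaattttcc

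The subunits of ORC had gene values between −0.22 and 0.78, with a median of 0.16 over the 6 genes and 5 of 6 above 0. ORC6, the smallest and least conserved subunit, had 1 transcript, at 0.28 in the authors' deposited table. ORC1, the subunit whose protein falls after S phase begins, stood in the authors' deposited table at 0.42, 0.20 and −7.79, so 2 of its 3 transcripts lay near 0 and its median was 0.20. All 3 are linked to the same GENCODE transcript, so what separates the one at −7.79 cannot be shown here. ORC2 stood at 0.12 for its coding transcript and −0.55 for a non-coding one in the authors' deposited table. For ORC3 the transcript with the 3 extra bases shown above was at 0.54 and the one without them at −0.30 in the authors' deposited table. ORC4, an ATPase subunit, had 0.10, 0.07 and −1.17 in the authors' deposited table, and the lowest of these has the same coding sequence as the highest, with 180 further untranslated bases. ORC5 was the highest of the complex by its median of 0.78, from 0.17 for the full-length NM_002553 and 1.39 for NM_181747 in the authors' deposited table, a form that ends 41653 bases earlier along the gene and codes for 972 instead of 1305 bases.

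The licensing factors stayed near 0. CDC6, the ATPase that loads the helicase together with ORC, was at 0.05 and its partner CDT1 at −0.13 in the authors' deposited table, each with 1 transcript. The 4 transcripts of GMNN, which encodes the CDT1 inhibitor geminin, lay between −0.11 and 0.29 in the authors' deposited table with a median of 0.12, and those at both ends hold the same coding sequence. The loaders and the inhibitor thus differed by less than 0.3 from one another, and their spread was smaller than the interquartile range of all genes.

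The 6 subunits of the MCM2-7 ring act in equal numbers, and 4 of the 6 lay within 0.3 of 0. MCM2 was at 0.07, MCM5 at 0.14 and MCM6 at −0.28 in the authors' deposited table, each on 1 transcript. MCM7, which shares exon bases with AP4M1 on the opposite strand, had 3 transcripts between 0.00 and 0.18 in the authors' deposited table, and AP4M1 itself had a gene value of 0.15. MCM3 stood apart at 4.17 only as a median, since NM_002388 was at 0.09 and NM_001270472 at 8.25 in the authors' deposited table. The transcript at 8.25 lacks exon 2 and starts translation 8 bases upstream, with 2454 coding bases against 2559. The 2 forms thus read the coding bases before exon 2 in different frames and those after it in the same frame. The transcript at 8.25 also lacks 572 untranslated bases at the 3′ end of NM_002388. In MCM4 NM_005914 was at 2.01 and NM_182746 at −0.07 in the authors' deposited table, and both hold the same 2589 coding bases with different 5′ ends. With these 2 genes at their value nearest to 0, all 6 subunits lay between −0.28 and 0.14. That choice itself draws MCM3 and MCM4 towards 0, so nothing is read from it. The median of the complex was 0.10.

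Among the factors that turn the helicase on, gene values ran between −0.42 and 0.32 with a median of 0.05 over 7 genes. CDC7, the kinase that phosphorylates the MCM ring, was highest, at 0.32 on 1 transcript in the authors' deposited table. The GINS subunits GINS1, GINS2 and GINS4 had 1 transcript each, at 0.04, 0.08 and 0.05 in the authors' deposited table, so these 3 were within 0.04 of each other. GINS3 had NM_022770 at 0.16, NM_001126130 at −0.27 and NM_001126129 at −1.02 in the authors' deposited table, the last being the form with an extra coding exon. That form also lacks 663 untranslated bases at the 3′ end of NM_022770. CDC45, which joins MCM2-7 and GINS in the active helicase, had its full-length NM_003504 at 0.17 and the form without exon 4 at −1.01 in the authors' deposited table. The form without exon 4 also lacks untranslated bases at both ends. With the principal forms of GINS3 and CDC45, at 0.16 and 0.17, these 2 genes lay among the other helicase factors. In both genes the principal form is also the one nearest to 0, so nothing is read from that choice. MCM10, a scaffold of the fork, was at 0.50 with the 3 extra bases and −0.16 without them in the authors' deposited table. The form at −0.16 also has 1368 further untranslated bases at its 3′ end.

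The 4 subunits of polymerase alpha-primase each had 1 transcript and ran between −0.27 and 0.23. In the authors' deposited table, the catalytic subunit POLA1 was at 0.23 and the accessory subunit POLA2 at −0.27, while the primase subunits PRIM1 and PRIM2 were at 0.19 and 0.01. The polymerase pair therefore lay on both sides of 0, and the primase pair above it. Exon bases of PRIM1 overlap NACA on the same strand and HSD17B6 on the other, which had gene values of 0.38 and 0.25.

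The 5 genes of polymerases delta and epsilon had a median of 0.34, which rested on genes with several transcripts. With coding transcripts alone it was 0.11, beside 0.18 for the clamp and its loader and 0.16 for ORC. POLE, the catalytic subunit of the leading-strand polymerase, was at −0.04 on 1 transcript in the authors' deposited table. In the authors' deposited table POLE2, its second subunit, had 0.01, 0.34 and 1.20, the lowest being the form with the most coding bases, 1581. POLD1, the catalytic subunit of the lagging-strand polymerase, had 0.99 and −0.02 in the authors' deposited table, on 2 accessions linked to the same GENCODE transcript. In the authors' deposited table POLD2 lay between −0.35 and −0.05 over 3 transcripts, and POLD3 had 0.11 for its coding transcript and 1.32 for a non-coding one. Taking the least changed transcript of each gene, a choice that draws values towards 0, puts the median of these 5 genes at −0.02. The subunits POLD4, POLE3 and POLE4 are not among the 5 and had gene values of −1.15, −0.27 and −0.24, and over all 8 subunits the median was −0.09.

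The clamp PCNA and the clamp loader had a median of 0.18, with 5 of 6 genes above 0. The gene of the clamp itself, a common marker of proliferating cells, had PCNA transcript NM_002592 at 1.76 and NM_182649 at 0.15 in the authors' deposited table. Both hold the same 783 coding bases, and their first exons start 6600 bases apart. RFC1, the large loader subunit, was at 0.94 with the 3 extra bases and −0.27 without them in the authors' deposited table. The small subunits stayed closer: RFC3 was at −0.04, RFC4 at 0.20 for both of its transcripts and RFC5 between 0.04 and 0.34 over 3 in the authors' deposited table. RFC2 had NM_181471, which holds exon 4, at −0.05 and NM_002914 at 0.06 in the authors' deposited table. The authors' deposited table lists its accession NM_001278791 at 0.25 and NM_001278792 at 1.41. Since both are linked to 1 GENCODE transcript without exon 4, that exon does not separate the value of 1.41 from the others.

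RPA1, the largest subunit of replication protein A, was the lowest of the fork proteins that rest on 1 transcript, at −0.46 in the authors' deposited table. Its partners were above 0, with RPA2 at 0.21 and 0.15, and RPA3 at 0.11, in the authors' deposited table. The 3 subunits form an obligate trimer, and RPA1 alone of them lay below 0. All 3 values are within 0.5 of 0, the zone that holds 76.9% of all genes. In the authors' deposited table the flap nuclease FEN1 was at 0.09, and the ligase LIG1 had its coding transcripts at −0.15 and −0.35 and a non-coding one at 0.43.

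The G1/S regulators had a median of −0.09, with 4 of 6 below 0. The activator E2F genes lay below 0 in the authors' deposited table, E2F1 at −0.05, E2F2 at −0.12, and E2F3 at −0.21 and −0.42 for its longer and shorter coding forms. Cyclin E genes lay above 0, with CCNE1 at 0.02 and CCNE2 at 0.32 in the authors' deposited table. CCNE2 shares 1629 exon bases with INTS8 on the opposite strand, which had a gene value of 0.21. DTL was the lowest of the 51 genes by its median of −1.70, from −4.71 for NM_016448 and 1.31 for NM_001286230 in the authors' deposited table. These 2 transcripts differ by exon 2, printed above, and by 24 bases at the 5′ end, and neither lay within 1 of 0. DTL was the single gene of the 25 with several transcripts of which no transcript lay within 0.5 of 0. As the levels of the 2 forms are not given, the sum over both cannot be computed.

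The enzymes of nucleotide supply had the lowest median of all roles, −0.26 over 3 genes. TYMS, the thymidylate synthase that is the target of fluorouracil, was at −0.54 (69.0% of control) on 1 transcript in the authors' deposited table, the lowest of the 26 genes with 1 transcript. TYMS shares 967 exon bases with ENOSF1 on the opposite strand, which had a gene value of 0.17, and no source used here says if counting used the strand. For ribonucleotide reductase, which makes deoxynucleotides, the catalytic subunit RRM1 was at 0.15 and the small subunit RRM2 at −0.26 in the authors' deposited table. Only the RRM2 accession NM_001165931 was analysed here.

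Across roles, as the genes were grouped here, the medians ran from −0.26 for nucleotide supply to 0.34 for polymerases delta and epsilon, and the values of all 11 roles overlapped. The subunit least like its complex differed from role to role. As examples, for RPA it was RPA1 and for polymerase alpha-primase POLA2, each below its partners and each on 1 transcript. For ORC it was ORC5 at 0.78, for the clamp and loader PCNA at 0.95 and for the MCM ring MCM3 at 4.17. Each of these lay above its partners and rests on 2 transcripts more than 1 apart. Without the far transcripts of the MCM ring it was MCM6 there, below its partners and on 1 transcript. Leaving those transcripts out itself draws MCM3 and MCM4 towards 0, so nothing is read from it. The 26 genes with 1 listed transcript had a median of 0.04 and ran between −0.54 and 0.32, with 25 of 26 (96.2%) within 0.5 of 0. Of all 7985 genes with 1 transcript, 80.2% lay within that distance.

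Transcripts lay more than 1 apart in 14 of the 25 genes with several (56.0%), beside 49.3% of the 4597 such genes in the whole table. The share near the background gives nothing particular to replication genes. Of the 88 transcripts, 8 (9.09%) were at or above 1, beside 8.26% of all named transcripts, and 5 (5.68%) at or below −1, beside 7.86%. In 14 of the 25 genes, transcripts lay on both sides of 0. In 24 of 25 (96.0%) at least 1 transcript lay within 0.5 of 0, and for all such genes that share was 86.1%.

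In 5 of the 25 genes, which are MCM4, PCNA, ORC4, GMNN and RFC4, the lowest and the highest transcript hold the same coding sequence, and 3 of these pairs, of MCM4, PCNA and ORC4, were more than 1 apart. In 3 genes the coding sequences differ by the 3 bases shown above, with values 0.67 apart in MCM10, 0.84 in ORC3 and 1.21 in RFC1. In 3 genes, ORC2, POLD3 and LIG1, 1 transcript of the pair is non-coding. The pairs of ORC1 and POLD1 share 1 GENCODE link, and RFC5 has none. In the other 11 genes the coding sequences differ by more than 3 bases, and 7 of those pairs were more than 1 apart. In 6 of those 7 pairs, the transcript that GENCODE tags as the principal isoform lay within 0.5 of 0, while the other one was at least 1 away from 0. The exception was DTL, whose principal transcript was at −4.71 in the authors' deposited table. These 7 pairs were picked by the distance of their values, and the share over all genes was not computed. Nothing particular to replication genes is therefore read from the 6 of 7.

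**Figure D2:**
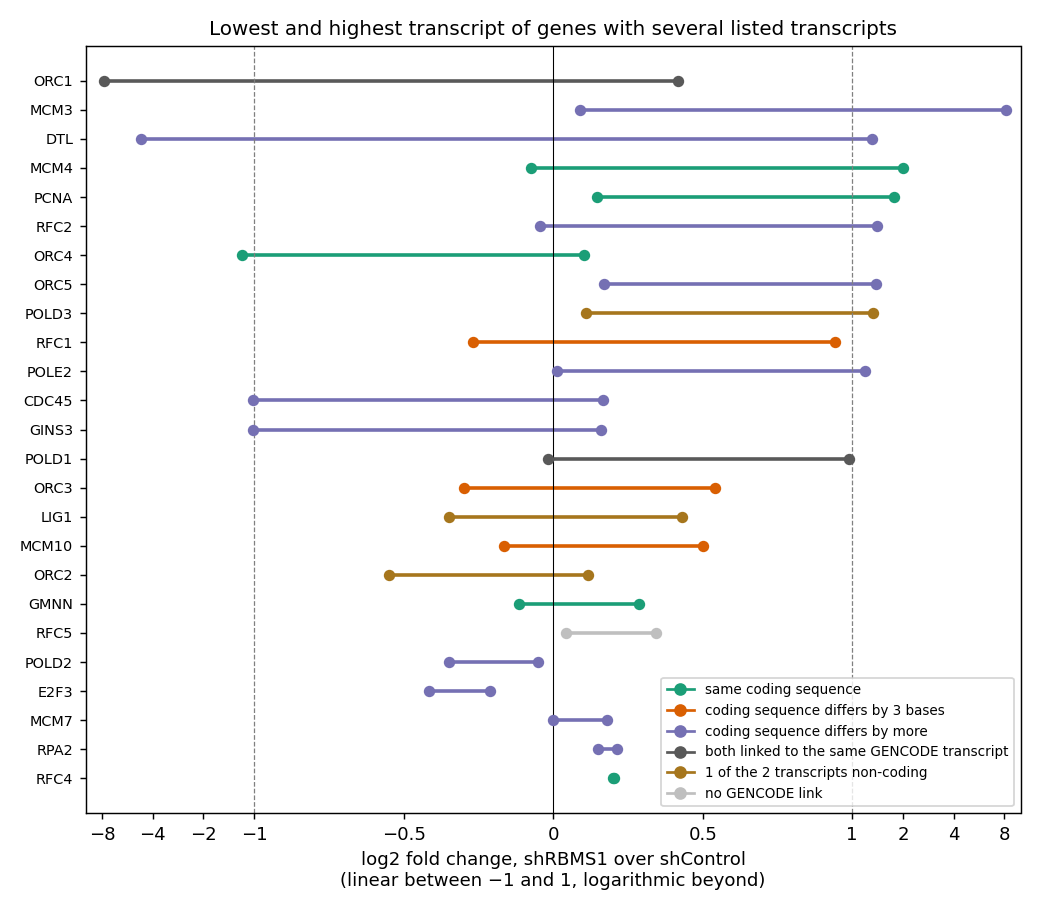
Lowest and highest log2 fold change (shRBMS1 over shControl, horizontal axis, linear between −1 and 1 and logarithmic beyond) among the transcripts of each of the 25 genes with several, ordered by their distance; colours give how the 2 transcripts differ in GENCODE 29. Pairs with the same coding sequence range from 0.00 apart in RFC4 to 2.09 in MCM4.

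**Figure D3:**
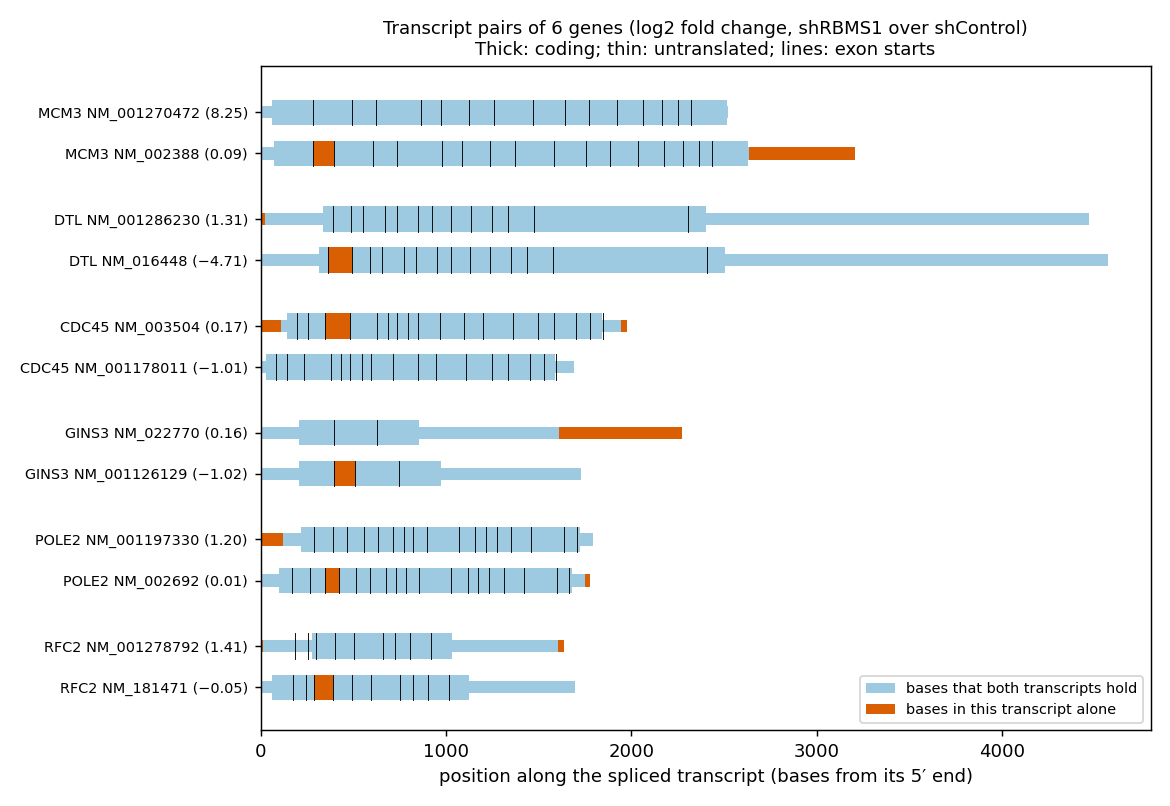
Spliced models of the lowest and highest transcript of 6 genes, drawn to scale in bases from the 5′ end, with coding parts thick, untranslated parts thin and exon starts as lines; orange marks bases found in that transcript of the pair alone. A whole coding exon, exon 2 in MCM3, DTL and GINS3 and exon 4 in CDC45, POLE2 and RFC2, is present in 1 form of each pair and absent from the other. The pairs differ in untranslated bases too.

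Promoters of 300 bases, 250 before the start of the gene and 50 after it, came from RefSeq (GRCh38.p14) and were found for 44 of the 51 genes. They were searched on both strands for the E2F-like letters TTTCCCGC, TTTGGCGC, TTTCGCGC and TTTGCCGC, where overlapping matches count separately. At least 1 match stood in 22 of 44 (50%), against 5.59% of the 10012 measured genes with a promoter and 3.33% of all 27305 promoters. All 4 MCM2-7 genes with a promoter held one, as did 4 of 5 G1/S regulators and 1 of 6 ORC genes. Genes with a match had a median of −0.04 and the 22 without one a median of 0.15, beside 0.04 and 0.01 among all measured genes. A match describes letters in this window and does not show that E2F binds there. The examples were chosen among genes with values near 0 or at the low end. Genes with high values hold matches too, such as MCM3 at 4.17 and PCNA at 0.95. The matches shown in capitals lie at chr17:40287886-40287893 (plus strand) for CDC6, chr20:33686398-33686405 (minus strand) for E2F1, chr1:212035740-212035747 (plus strand) for DTL and chr3:127598413-127598420 (plus strand) for MCM2:
CDC6: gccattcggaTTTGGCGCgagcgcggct
E2F1: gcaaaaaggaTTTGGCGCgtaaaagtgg
DTL: gtgacgtcagTTTGGCGCggagtttggc
MCM2: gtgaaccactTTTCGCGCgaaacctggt

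**Figure D4:**
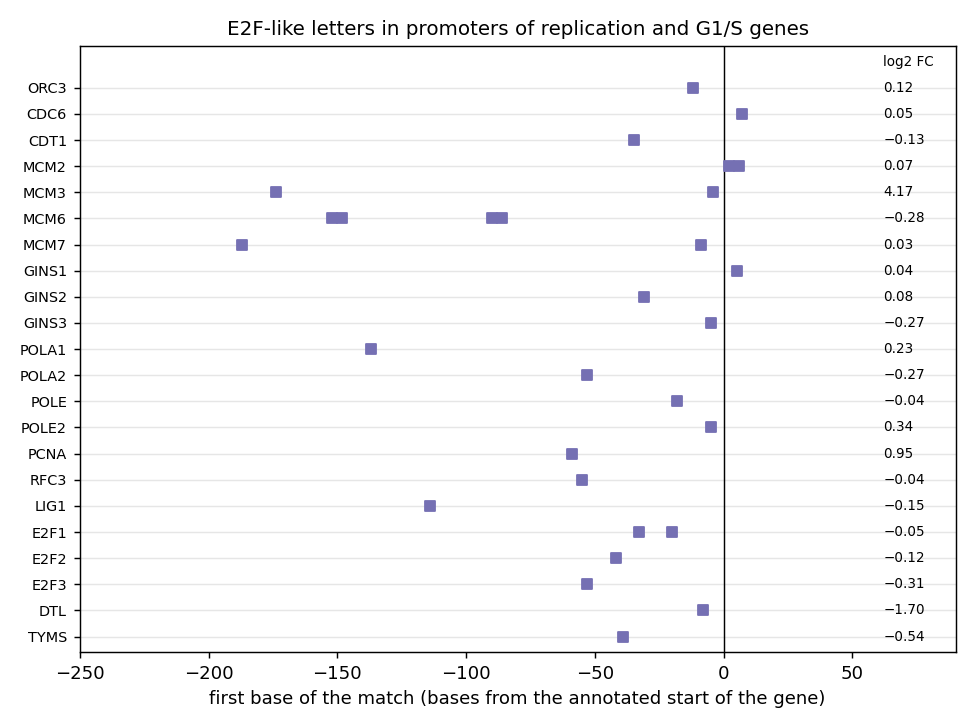
First base of each E2F-like match (horizontal axis, bases from the annotated start of the gene, which is the vertical line) in the promoters of the 22 genes with one (rows); numbers at the right are the gene's log2 fold change, shRBMS1 over shControl. Matches lie between −187 (MCM7) and 7 (CDC6), counting the first base of the gene as 0.

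RBMS1 recognises AUAUA, so its DNA letters ATATA were counted in the longest annotated 3′ UTR of each gene. Of 49 replication genes with a 3′ UTR, 28 (57.1%) held at least 1 site, against 58.8% of 11188 genes, so the share was near that of all genes. Their median 3′ UTR was 916 bases long, against 1134 for all genes. The 28 genes with a site had a median of 0.12 and the 21 without one a median of 0.02, beside 0.02 and −0.00 for all genes with and without a site. ORC4 had the most sites, 14 in 5113 bases, with a gene value of 0.07, then ORC2 with 7 at −0.22 and CDC7 with 6 at 0.32. TYMS at −0.54 and CDC45 at −0.42 had 0 sites, and the 3′ UTR of RPA1 was not analysed here. Among genes with high values, MCM4 at 0.97, PCNA at 0.95, ORC5 at 0.78 and POLD3 at 0.72 had 1 site each. MCM3 at 4.17 had 0 sites. The first site is shown for the 4 lowest genes that hold one, with its letters in capitals, at chr1:212103630-212103634 (plus strand) in DTL, chr6:20491070-20491074 (plus strand) in E2F3, chr2:135839768-135839772 (minus strand) in MCM6 and chr16:58405016-58405020 (plus strand) in GINS3:
DTL: tttctctcaaATATAtctcccgtat
E2F3: ctgttttcaaATATActtgttgcag
MCM6: agacagattaATATAggttaaaaca
GINS3: aatcactgccATATAatatatcaca

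A second list of 51 replication and G1/S genes, made of further fork and checkpoint factors, cyclins, E2F and pocket proteins and nucleotide enzymes, was measured in full. Its median was 0.04, with 1 gene at or above 1, 1 at or below −1 and 45 of 51 (88.2%) within 0.5 of 0. Highest was CLSPN, the checkpoint mediator claspin, with a gene value of 4.29 from 8.74 for 1 transcript and −0.15 for the other in the authors' deposited table, the same pattern of 1 far and 1 near transcript as MCM3. Next stood the CDK inhibitor gene CDKN2C at 0.64, from 0.07 and 1.21, and RRM2B, the ribonucleotide reductase subunit that p53 induces, at 0.52, from transcripts between −0.28 and 1.20 in the authors' deposited table. Lowest was POLD4, the smallest subunit of polymerase delta, at −1.15, from −0.65 for its coding and −1.64 for its non-coding transcript in the authors' deposited table. Above it came CCND1, the cyclin D1 gene, at −0.72 on 1 transcript, and E2F8, a repressor of the E2F family, at −0.53, from −0.23 and −0.83 in the authors' deposited table. Both lists held the same share of genes beyond 1 in each direction, 1.96%, from which nothing is read.

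The targeted gene had transcripts at −1.36 (39.1% of control) and −1.62 (32.5%) in the authors' deposited table. The table gives no direction for its ratio, and the sign was set so that RBMS1 is lower in the knockdown, so every sign above would turn with it. Of 10 markers of colon epithelium, 7 were listed in the table. Their gene values ran between −2.33 (VIL1, a microvillus protein) and 0.05 (KRT8, a keratin). CDH1, the adhesion protein E-cadherin, was at −0.79, and EPCAM, KRT19 and CDX2 were at −0.37, −0.33 and −0.43. KRT18 was at −1.09, from transcripts at −2.17 and −0.02, and the 4 transcripts of KRT8 lay between −0.07 and 1.82. Of 15 markers of leukocytes, fibroblasts and endothelial cells, 1 was listed, LYZ at −0.68. Their part in the values above was not tested, and their levels are not given. Values ran between −9.99 and 9.96, and at the far ends, such as 8.25 in MCM3, −7.79 in ORC1 and −4.71 in DTL, a level near 0 in either group would give such a ratio too, which was not tested. By exons in GENCODE 29, 12 of the 51 genes overlap another gene on the opposite strand that is also listed.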

How the data were processed

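Total RNA of 3 SW480 libraries was compared, 1 with shRBMS1 and 2 with shControl. Per the submitters' processing notes, the tools were STAR 2.5, Cufflinks and Cuffdiff and the build hg38, with no roles, settings or filters. The authors deposited 1 table of log2 fold changes for 20104 RefSeq transcripts. Counts and levels were not analysed here, so depth is unknown. Base 2 was taken from the spacing of values: 20 transcripts lay 1 away (within 1.5e-05) from a value seen at least 3 times, against 4 for ln 2 and 5 for log10 of 2. The direction was taken from RBMS1.

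RefSeq names (GRCh38.p14) matched 19818 transcripts (98.6%), and the other 286 were left out. For each of 12582 genes the median over transcripts was used. The genes, their 11 roles and the further list were chosen with earlier results of these data known. The rule named every one of the 51 genes, and the 3 highest and 3 lowest of the further list. A fold change of 1 on the log2 scale was the threshold for counts, with no test. GENCODE 29 transcripts were joined by RefSeq links, whose ends can differ from RefSeq models. List medians were tested on simulated data with known shifts, which checks the calculation alone and not the fold changes. The alternatives were 5 ways to take a value per gene, genes with 1 transcript, centring and other thresholds. Python 3.11.15, numpy 2.4.6, pandas 2.3.3 and matplotlib 3.10.9 were used. One exon sequence is not reported here.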

Additional observations from a re-analysis of the deposited data

How the results depend on the processing

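The median of the 51 genes stayed between 0.04 and 0.09 under the 7 alternatives that give one. No median of a role moved by 0.58 or more. Every role median was itself smaller than that in size, so no stability is read from it. Several roles changed sign under at least 1 alternative. Among them were polymerases delta and epsilon (0.34, down to −0.04) and the clamp and its loader (0.18, down to −0.04). ORC (0.16, down to −0.05) and RPA (0.11, down to −0.17) did so too. Counts beyond 1 changed, since each rests on 1 gene. The lower count, 1, was 2 with the mean of transcripts and with the longest coding transcript (by total sequence), and 0 with the least changed transcript, without transcripts at or beyond 4, among genes with 1 transcript, and at a threshold of 2. The higher count, 1, was 3 with the longest coding transcript, 0 among genes with 1 transcript, and 5 at a threshold of 0.58. DTL turned to 1.31 with its least changed transcript and without transcripts at or beyond 4, and it was then the gene counted as higher in place of MCM3, which was at 0.09 in both. In all, 11 of the 51 genes moved by more than 0.58 under at least 1 alternative, and each has several transcripts. Among them ORC1 was at −2.39 with the mean, ORC4 at −1.17 and POLE2 at 1.20 with the longest coding transcript, and MCM4 and PCNA at 2.01 and 1.76 with the longest coding transcript and −0.07 and 0.15 with the least changed one. Leaving out a library could not be done with fold changes alone. No paired analysis was possible because the result comes from no test. Depth is unknown.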
